A study of Macaca mulatta with 12 samples.

Results

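Expression of 9 genes of the neuronal cytoskeleton was followed across the layers of the lateral geniculate nucleus (LGN) of the rhesus macaque after monocular deprivation. They code for the microtubule-associated proteins MAP1A, MAP1B, MAP2 and tau (MAPT), for the ankyrins ANK2 and ANK3, and for the spectrins SPTAN1, SPTBN1 and SPTBN4. Every non-control probe set that named exactly 1 of these genes was taken, which gave 27 of the 22215 non-control probe sets on the array. MAP1A had 3 of them, MAP1B 2, MAP2 1, MAPT 4, ANK2 3, ANK3 3, SPTAN1 4, SPTBN1 6 and SPTBN4 1. Of the 27, 18 passed the filter on dim probe sets and were tested, at least 1 for every gene, and 9 lay below it.

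Microtubule-associated proteins bind along microtubules, stabilise them and set their spacing in axons and dendrites. Spectrins are long tetramers of alpha and beta chains that, with actin, form a lattice under the plasma membrane, and ankyrins fasten channels and adhesion molecules to that lattice. In relay neurons of the LGN, as in other projection neurons, ankyrin-G (ANK3) and beta-IV spectrin (SPTBN4) are concentrated at the axon initial segment and at nodes of Ranvier, where sodium channels cluster.

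The LGN relays input from the retina to the visual cortex, and each of its 6 layers receives 1 eye. The 6 deprived samples were layers 2, 3 and 5 ipsilateral and layers 1, 4 and 6 contralateral to the deprived eye. The 6 nondeprived samples were the same layers of the opposite hemisphere, that is layers 1, 4 and 6 ipsilateral and 2, 3 and 5 contralateral. Layers 1 and 2 hold the large magnocellular relay cells (4 samples) and layers 3 to 6 the small parvocellular ones (8 samples), by the usual anatomy of this species. Each sample was total RNA of 1 layer of 1 hemisphere on 1 array. The sources used here give neither the age nor the number of animals, neither the manner nor the length of deprivation, and not which samples came from the same animal. Where samples share an animal, as all 12 may, the p-values below are too small as statements about animals. All groups were taken after monocular deprivation, so the nondeprived layers are not layers of an untreated animal. In such bulk samples, fewer cells of a type and less RNA per cell cannot be told apart.

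The arrays had been scaled to a common trimmed mean before deposit, and values below are scaled intensities, comparable between arrays within a probe set but not between probe sets. Log2 differences are given with their standard errors, and adjusted p-values are those of limma with Benjamini-Hochberg adjustment over all 11105 probe sets tested. Median array intensity was higher ipsilaterally (586 ± 83.3) than contralaterally (467 ± 39.7, SD, n = 6 each, exact permutation p = 0.0195, adjusted p = 0.0878 over 9 such comparisons). The deprived layer 2 array correlated least with the others (mean r 0.868, against 0.897 to 0.934). The 3'/5' ratio of the GAPDH control, a measure of RNA integrity, was 9.38 on that array and 11 on deprived layer 5, and 2.21 to 5.65 elsewhere. Of 10 genes listed for thalamic relay neurons, 9 were on the array and 7 passed the filter.

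The first question was whether the 9 genes differed between layers of the deprived and of the nondeprived eye. None of the 18 probe sets passed an adjusted p under 0.05 in limma, where 0.0630% of all probe sets tested did. At an unadjusted p under 0.05 there were 3, all lower in deprived layers (6.07% of all probe sets in that direction), and they belonged to MAP1A and MAPT. The median log2 difference was -0.14 over the 18 probe sets, against 0.03 over all probe sets tested, and 12 of the 18 were negative. The 18 include MAP1A 215391_at and MAPT 203930_s_at, which passed the filter only through the deprived samples. Their deprivation values are descriptions and not tests.

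**Figure D1:**
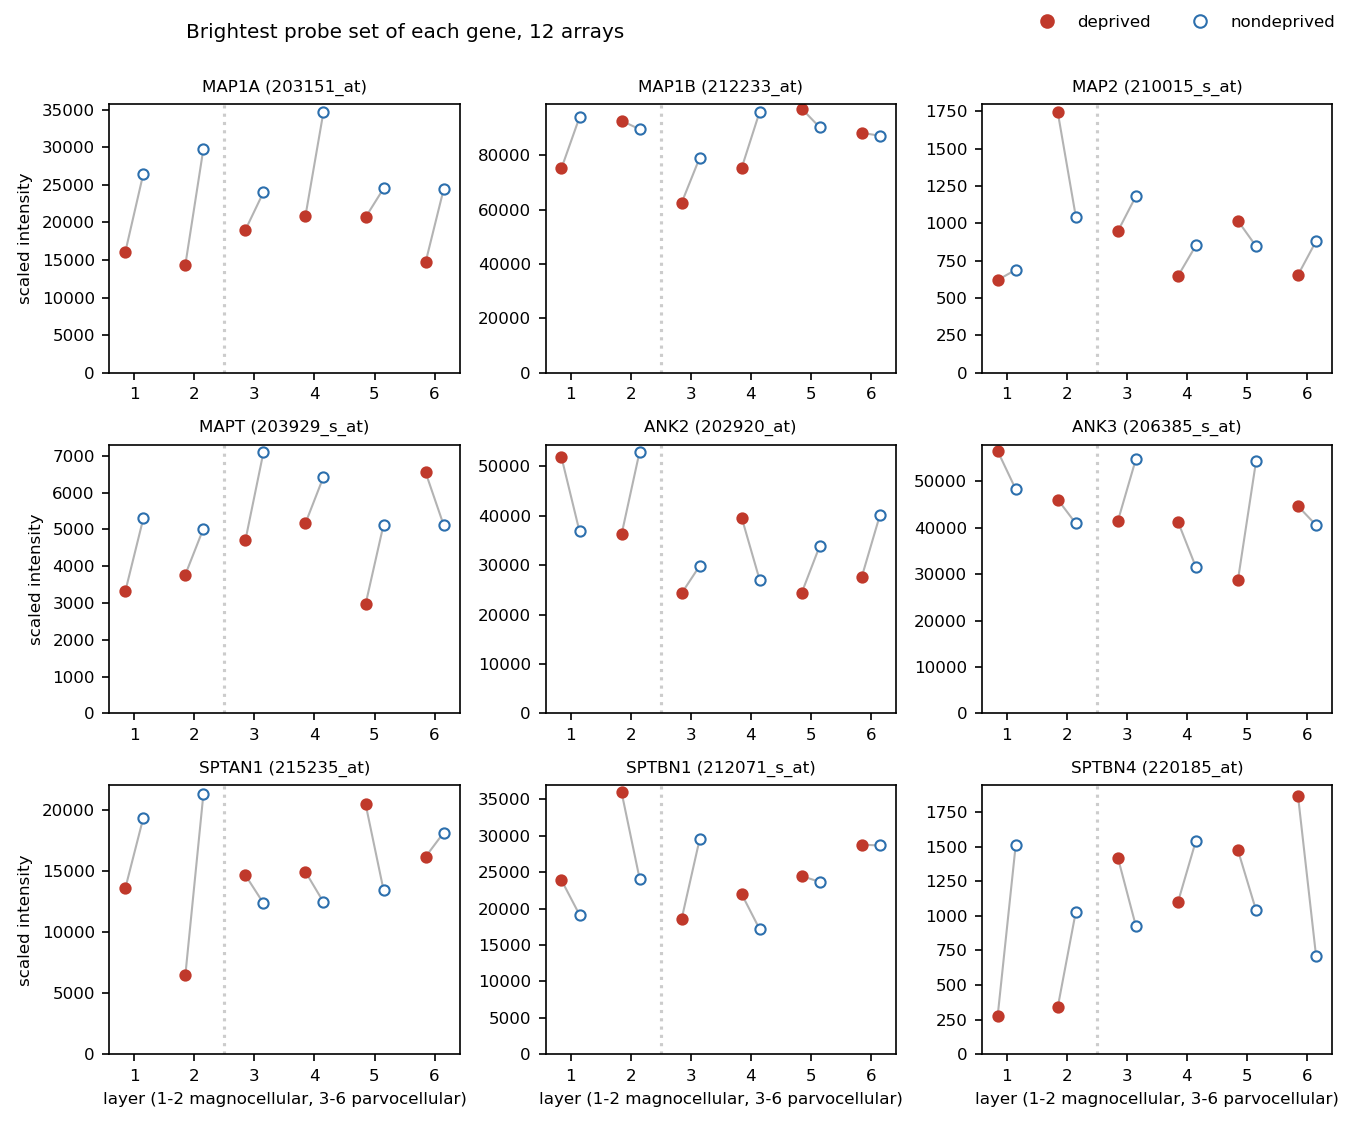
Scaled intensity of the brightest probe set of each of the 9 genes (vertical axes from 0) in layers 1 to 6, 12 arrays. Filled points are deprived and open points nondeprived samples, grey lines join the samples of a layer from opposite hemispheres, and the dotted line divides magnocellular from parvocellular layers. MAP1A is lower in the deprived sample of 6 of 6 layers, and SPTBN4 is lowest in deprived layers 1 and 2.

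MAP1A, which binds microtubules in mature neurons, was the only one of the 9 genes with a tested probe set that separated the groups. Its probe set 203151_at read 16044, 14359, 19007, 20881, 20680 and 14718 in deprived layers 1 to 6, and 26472, 29772, 24019, 34752, 24521 and 24410 in nondeprived layers 1 to 6. Every deprived value lay below every nondeprived one, which held in that direction for 0.351% of all probe sets. It follows that the deprived sample was the lower one in 6 of 6 layers (2.42% of all probe sets), which is no separate result. The deprived sample was 1.19-fold lower in layer 5 and 2.07-fold lower in layer 2, the smallest and largest of the 6 layer differences. Means were 17615 ± 2948 in deprived and 27324 ± 4223 in nondeprived layers (SD, n = 6 each). The log2 difference was -0.64 ± 0.14 (95% interval -0.94 to -0.33). Its p was the 37th smallest of the 11105, and with a limma adjusted p of 0.11 it did not pass.

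Within the ipsilateral hemisphere alone the MAP1A difference was -0.66, and within the contralateral hemisphere alone -0.61. Inside 1 hemisphere the deprived and nondeprived samples are different layers, so deprivation and layer cannot be told apart there. It was -0.89 ± 0.24 in magnocellular and -0.51 ± 0.17 in parvocellular layers, and these did not differ by the interaction term (-0.38 ± 0.30, limma adjusted p = 0.735). In the same deprived layers, markers of astrocytes had a median log2 difference of 0.44 (9 of 9 measured positive), and their summed intensity ranged from 86114 to 131423 in deprived and from 59957 to 99568 in nondeprived layers. Oligodendrocyte markers had a median of 0.31 (10 of 10 positive; summed 65971 to 156554 in deprived and 65495 to 109688 in nondeprived layers), endothelial and mural markers 0.28 (7 of 8 positive; 11496 to 18493 in deprived and 9367 to 12911 in nondeprived layers) and microglial markers 0.20 (5 of 5 positive; 7709 to 15111 in deprived and 7037 to 9339 in nondeprived layers). The list drawn up for relay neurons had a median of -0.16 (5 of 7 negative), and summed to 235844 to 262352 in deprived and 243832 to 275854 in nondeprived layers. SYT1 and SNAP25 are part of that median and sum, and whether they mark relay neurons alone was not tested. The list drawn up for interneurons had a median of 0.37 (5 of 6 positive), and summed to 54607 to 104701 in deprived and 56882 to 80274 in nondeprived layers. Its exception was PVALB (-0.51 ± 0.16), which is part of that median and sum. Whether PVALB marks interneurons in these layers was not tested. No marker was listed at 0. Such sums follow the brightest probe sets of a list and do not measure the amount of a cell type. The part of cell composition in the MAP1A values was not tested.

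A second probe set of MAP1A, 215391_at, ran the other way. It was dim, just inside the filter (mean log2 9.0, filter 8.92), and read 548, 756, 587, 353, 786 and 860 in deprived layers 1 to 6, against 472, 470, 293, 574, 245 and 607 in nondeprived layers 1 to 6. The deprived sample was higher in 5 of 6 layers, all except layer 4, and the groups overlapped. Its log2 difference was 0.56 ± 0.28. The mean log2 was 9.28 in deprived and 8.72 in nondeprived layers, so it passed the filter only through the deprived samples, and its differences are given as a description with no test. The third probe set of the gene, 215384_s_at, lay below the filter, with 309 ± 114 in deprived and 282 ± 216 in nondeprived layers (SD, n = 6 each).

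The difference between probe sets of a gene on the same array does not depend on how the array was scaled. It was therefore fitted for the 9 pairs that the 7 genes with several measured probe sets gave, each against the gene's brightest. For MAP1A, 215391_at minus 203151_at was larger in deprived layers by 1.20 ± 0.29 on the log2 scale and positive in 6 of 6 layers, and this value is not independent of how 215391_at passed the filter. Over the 12 arrays the log2 values of this pair had a Pearson r of -0.44 (Spearman -0.54), lower than in all but 5.82% of pairs, whose median r was 0.26. These arrays share the deprivation contrast, so the correlation is a description of it. Of the 9 pairs none passed for deprivation in limma (0 of 2558 in all). The pairs of MAP1A 215391_at and MAPT 203930_s_at are not counted as tests, because these probe sets passed the filter only through the deprived samples. Among the others, only MAPT 206401_s_at minus 203929_s_at had an unadjusted p under 0.05 (6.25% of all pairs did). As a description, the signs of the 2 probe sets differed in 4 of the 9 pairs, these included (37.1% of all pairs).

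MAP1B, which is most prominent in growing axons, and MAP2, which marks dendrites, did not differ between deprived and nondeprived layers beyond their spread. MAP1B 212233_at ranged from 62543 to 97194 in deprived layers (median 81863) and from 79093 to 96135 in nondeprived layers, with the deprived sample lower in 3 of 6 layers and a log2 difference of -0.14 ± 0.12 (95% interval -0.39 to 0.11). Its other probe set, 214577_at, had 1680 ± 481 in deprived and 1912 ± 738 in nondeprived layers (-0.16 ± 0.23). MAP2 210015_s_at ranged from 620 to 1743 in deprived layers (median 801) and had a mean of 916 ± 172 in nondeprived layers (SD, n = 6), a difference of -0.05 ± 0.25 (95% interval -0.58 to 0.48). Its highest value of all 12 was in deprived layer 2, the array that correlated least with the others.

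MAPT codes for tau, a microtubule-associated protein of axons. Its brightest probe set, 203929_s_at, read 3314, 3773, 4708, 5172, 2965 and 6550 in deprived layers 1 to 6, against 5299, 5020, 7098, 6432, 5132 and 5122 in nondeprived layers 1 to 6. The deprived sample was lower in 5 of 6 layers, the exception being layer 6, and the groups overlapped through that sample and deprived layer 4. The log2 difference was -0.41 ± 0.18 (limma adjusted p = 0.386).

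A second tau probe set, 203928_x_at, was lower in deprived layers as well, at 945, 320, 1327, 802, 1166 and 865 in deprived layers 1 to 6 and 1749, 1345, 1263, 1555, 1256 and 878 in nondeprived layers 1 to 6. The suffix x marks probes that may also bind other transcripts. The difference of -0.66 ± 0.29 (limma adjusted p = 0.379) lay mainly in layers 1, 2 and 4, the groups overlapped, and it was -0.33 without deprived layer 2. The other tau probe sets had positive differences, 0.18 ± 0.25 for 206401_s_at and 0.19 ± 0.28 for 203930_s_at (limma adjusted p = 0.831 for the first). Set against 203929_s_at on the same arrays, 206401_s_at stood 0.59 ± 0.23 higher in deprived layers (limma adjusted p = 0.767 over 2558 pairs). The same difference for 203930_s_at, 0.59 ± 0.26, is a description with no test: its mean log2 was 9.08 in deprived and 8.89 in nondeprived layers, so it too passed the filter only through the deprived samples. At 206401_s_at the means were 903 ± 204 in deprived and 819 ± 282 in nondeprived layers, and at 203930_s_at they were 549 ± 105 in deprived and 517 ± 229 in nondeprived layers. The signs of the tau probe sets differed with deprivation.

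**Figure D2:**
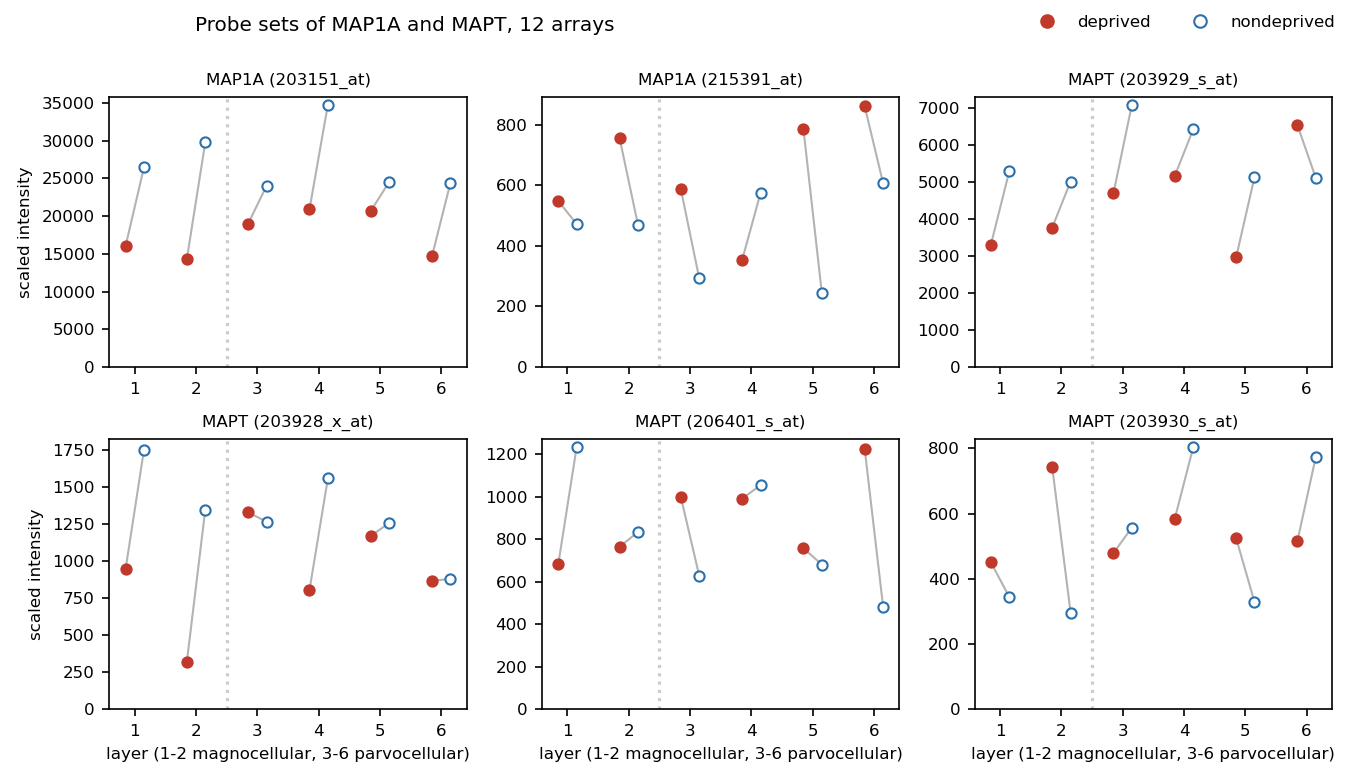
Scaled intensity by layer for the measured probe sets of MAP1A and MAPT (filled, deprived; open, nondeprived; each vertical axis starts at 0). MAP1A 203151_at is lower in all 6 deprived samples and 215391_at higher in 5 of 6, and MAPT 203929_s_at is lower in 5 of 6 deprived samples.

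The ankyrins showed little with deprivation. ANK2, ankyrin-B, which links membrane proteins to spectrin along the axon, had at 202920_at a mean of 34032 ± 10774 in deprived and 36788 ± 9222 in nondeprived layers (SD, n = 6 each; log2 difference -0.13 ± 0.14, 95% interval -0.44 to 0.17). Its dimmer probe set 202921_s_at had -0.42 ± 0.21 (limma adjusted p = 0.449), with 1923 ± 609 in deprived and 2552 ± 739 in nondeprived layers. ANK3, the organiser of the initial segment, had -0.06 ± 0.14 at 206385_s_at (95% interval -0.37 to 0.24) and 0.03 ± 0.13 at 209442_x_at (-0.25 to 0.30). At 206385_s_at deprived values ranged from 28799 to 56478 (median 43027), and nondeprived values averaged 45032 ± 9069.

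One ankyrin probe set below the filter separated the groups. ANK2 216195_at read 391, 1191, 507, 349, 682 and 373 in deprived layers 1 to 6, and 120, 242, 264, 232, 245 and 42.9 in nondeprived layers 1 to 6. All deprived values were above all nondeprived ones, which held for 0.257% of the 22215 probe sets without a filter, and the highest was again deprived layer 2. Without a filter the log2 difference was 1.46 ± 0.39 (limma adjusted p = 0.335), opposite in sign to that of both brighter ANK2 probe sets. A probe set of SPTBN1 below the filter, 200671_s_at, was also higher in the deprived sample of 6 of 6 layers, with 429 ± 195 in deprived and 232 ± 189 in nondeprived layers (1.01 ± 0.36, limma adjusted p = 0.481), and 1.81% of the unfiltered probe sets were so. These 2 probe sets had an unadjusted p under 0.05, and 5.38% of unfiltered probe sets had one with a higher value in deprived layers. None of the 9 probe sets below the filter passed (0.00450% of unfiltered probe sets did), and how much of so low an intensity comes from the named transcript was not tested. The probe set just outside the filter was SPTBN1 215918_s_at (mean log2 8.66), with 468 ± 180 in deprived and 385 ± 119 in nondeprived layers. Unfiltered deprivation differences of the 9 ran from -0.05 to 1.46 and 8 were positive. Among them were 0.68 ± 0.46 for ANK3 207950_s_at, 0.45 ± 0.41 for SPTBN1 213914_s_at and 0.21 ± 0.18 for SPTBN1 214856_at.

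Of the spectrins, SPTAN1 codes for alpha-II spectrin, the partner of every beta chain in neurons, and SPTBN1 for beta-II spectrin of the axon shaft. With deprivation SPTAN1 had -0.21 ± 0.24 at 215235_at and -0.28 ± 0.20 at 208611_s_at, and SPTBN1 had 0.11 ± 0.17 at 212071_s_at and 0.06 ± 0.20 at 200672_x_at. SPTBN4 had -0.34 ± 0.36 at 220185_at, where the deprived values ran from 279 to 1865 (median 1261) and the nondeprived values averaged 1128 ± 334 (SD, n = 6). SPTBN1 212071_s_at averaged 25614 ± 6077 in deprived and 23715 ± 4952 in nondeprived layers. The limma adjusted p of these 5 probe sets lay between 0.619 and 0.935. The lowest deprived SPTBN4 values were the magnocellular ones.

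**Figure D3:**
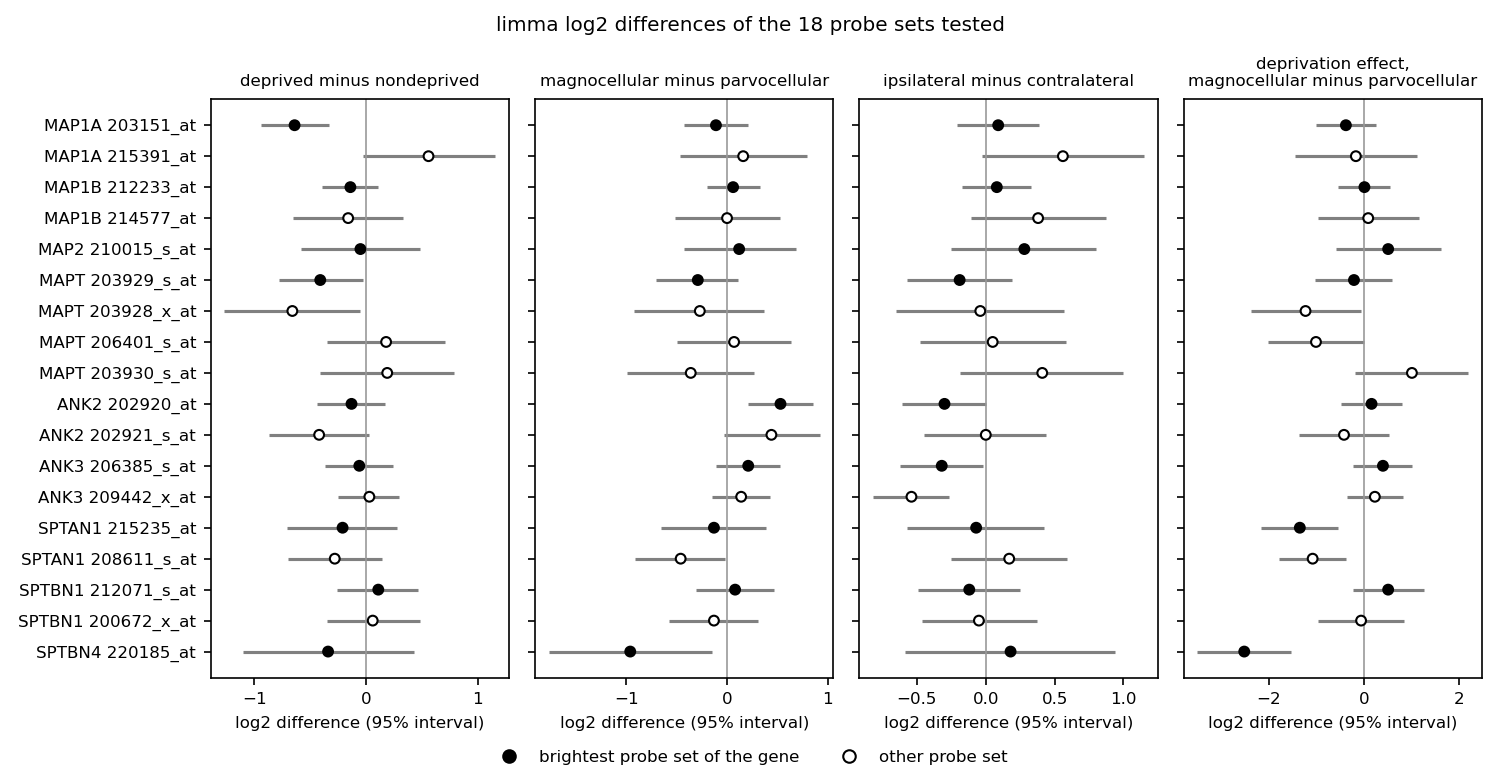
Log2 differences of the 18 tested probe sets with 95% intervals from limma, 1 panel per comparison (horizontal axes in log2 units, different scales). Filled points are the brightest probe set of a gene and open points its others. The intervals of MAP1A 203151_at (deprivation), ANK2 202920_at (cell class), ANK3 209442_x_at (hemisphere) and SPTBN4 220185_at (interaction) lie clear of 0, and no probe set passed the adjusted threshold in any panel. The deprivation values of MAP1A 215391_at and MAPT 203930_s_at, the class value of MAPT 203930_s_at and the SPTBN4 interaction are descriptions and not tests.

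Whether the response to deprivation differed between the cell classes was tested with an interaction term, the deprivation difference in magnocellular minus that in parvocellular layers. None of the 18 probe sets passed, nor did any of the 11105 (0% called; limma). At an unadjusted p under 0.05 there were 4, all with a lower difference in magnocellular layers (8.73% of all probe sets in either direction, 6.03% lower). Of the 4, 3 belonged to the spectrin genes SPTBN4 and SPTAN1, the latter with both its tested probe sets. The SPTBN4 value is a description, for the reason given below.

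SPTBN4 codes for beta-IV spectrin, the spectrin of the axon initial segment and nodes. Its single probe set read 279 and 341 in deprived magnocellular layers 1 and 2, and 1515 and 1030 in nondeprived magnocellular layers 1 and 2. In parvocellular layers 3 to 6 it read 1422, 1099, 1474 and 1865 in deprived and 927, 1545, 1042 and 709 in nondeprived samples. The 2 deprived magnocellular values were the lowest of the 12, with a gap up to 709, and lay below the intensity of the filter (483), whereas the parvocellular groups overlapped. The difference with deprivation was -2.02 ± 0.38 in magnocellular layers, 4.05-fold lower, and 0.51 ± 0.27 in parvocellular layers.

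The SPTBN4 interaction was -2.52 ± 0.46 (95% interval -3.51 to -1.54), with the smallest limma p of the 11105 probe sets (5.32e-05) and a limma adjusted p of 0.259. Both deprived magnocellular values lay below the filter, so the probe set passed it only through the other 10 arrays. The interaction and its p are therefore a description and not a test. Across the alternatives tried the interaction ran from -2.75 to -2.30. It was -2.46 without deprived layer 1, where deprived layer 2 alone stands for the deprived magnocellular group. The 2 deprived magnocellular samples came from opposite hemispheres, with GAPDH ratios of 3.2 (layer 1) and 9.38 (layer 2) and ACTB ratios of 38.2 and 62.9. With only 2 samples in that group the precision is low. Summed markers in these 2 samples were 104347 and 130462 for astrocytes, against 59957 to 131423 in the other 10, and 65971 and 89703 for oligodendrocytes, against 65495 to 156554. The relay neuron list, SYT1 and SNAP25 included, summed to 249908 and 262352 there, against 235844 to 275854. Endothelial and mural markers summed to 13067 and 18493, against 9367 to 15996. The interneuron list, PVALB included, summed to 72154 and 104701, against 54607 to 80274, and microglial markers to 7709 and 9574, against 7037 to 15111. The part of cell composition in the SPTBN4 and SPTAN1 values was not tested.

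SPTAN1, the alpha chain, also had negative interaction values at both tested probe sets. At 215235_at the deprived magnocellular samples read 13553 and 6448 and the nondeprived magnocellular samples 19320 and 21234, while deprived parvocellular layers 3 to 6 read 14632, 14903, 20463 and 16142 and nondeprived ones 12345, 12429, 13411 and 18107. At 208611_s_at the deprived magnocellular samples read 4638 and 3746 and the nondeprived ones 7860 and 8839, and deprived parvocellular layers 3 to 6 read 10316, 7385, 7572 and 8371 against 6312, 9937, 6676 and 9327 in nondeprived ones. The 2 deprived magnocellular arrays were the lowest of the 12 at 208611_s_at, as at SPTBN4, and this was so for 6.17% of all probe sets. At 215235_at only deprived layer 2 stood below the rest.

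The interaction was -1.35 ± 0.38 at 215235_at (magnocellular -1.12 ± 0.31, parvocellular 0.24 ± 0.22, limma adjusted p = 0.408) and -1.08 ± 0.34 at 208611_s_at (magnocellular -1.0 ± 0.27, parvocellular 0.08 ± 0.19, limma adjusted p = 0.422). The value of 215235_at rested on single arrays. It was -0.76 without deprived layer 2, -0.70 without deprived layers 2 and 5, which had the highest GAPDH ratios, and -1.95 (adjusted p = 0.0161) without deprived layer 1. The other SPTAN1 probe sets lay below the filter, and 214926_at had an interaction of -1.87 ± 0.81 and 214925_s_at of -0.63 ± 0.62 when fitted without it (limma adjusted p = 0.631 and 0.771).

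**Figure D4:**
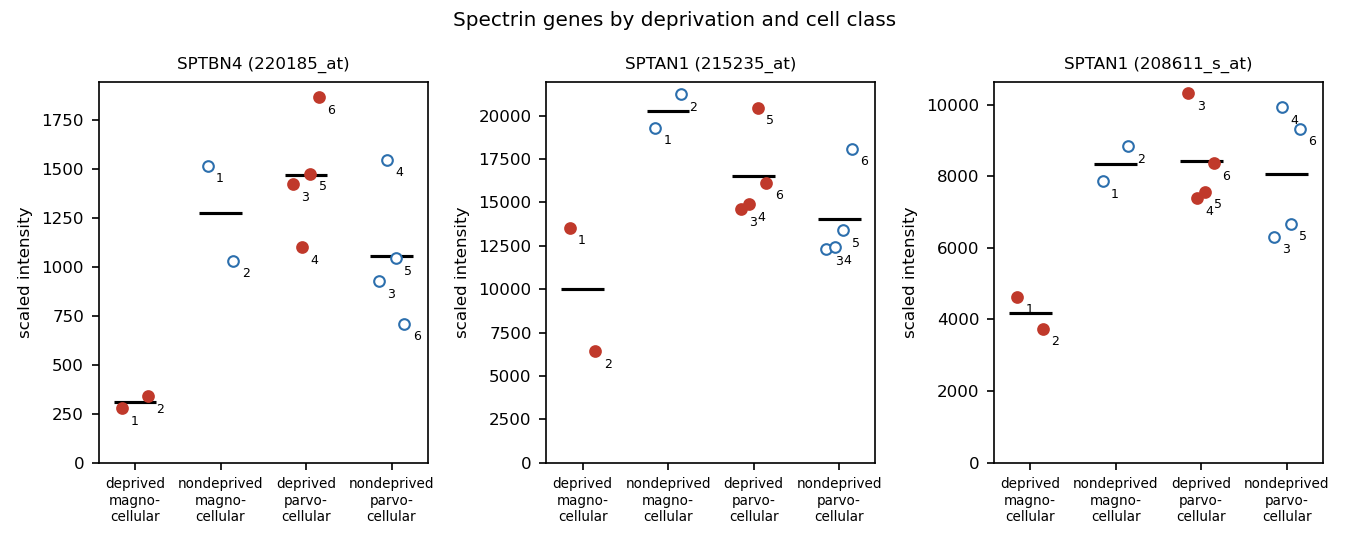
Scaled intensity (vertical axes from 0) of SPTBN4 and of both tested SPTAN1 probe sets in the 4 combinations of deprivation and cell class, with the layer number beside each point and bars at group means. The 2 deprived magnocellular samples are the lowest of 12 for SPTBN4 (279 and 341) and for SPTAN1 208611_s_at (4638 and 3746).

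The 4th probe set was MAPT 203928_x_at, with an interaction of -1.23 ± 0.55 (magnocellular -1.48 ± 0.45, parvocellular -0.25 ± 0.31, limma adjusted p = 0.55). It ran from -2.14 without deprived layer 1 (adjusted p = 0.0361) to -0.30 without deprived layers 2 and 5. The dimmer tau probe sets had interactions of opposite sign, -1.01 ± 0.48 at 206401_s_at and 1.01 ± 0.56 at 203930_s_at, and 203929_s_at had -0.21 ± 0.38. The remaining spectrin, SPTBN1 212071_s_at, had an interaction of 0.51 ± 0.36 in the other direction. Its highest value was deprived layer 2 (35983), and its range over the other 11 samples was 17144 to 29529. The brightest probe sets of MAP1B, MAP2, ANK2 and ANK3 had interactions between 0.01 and 0.51, with unadjusted p from 0.2 to 0.983.

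The second comparison set magnocellular against parvocellular layers, whose relay cells differ in size and in the calibre of their axons. None of the 18 probe sets passed (0.720% of all did; limma), and 3 had an unadjusted p under 0.05 (14.6% of all probe sets): ANK2 202920_at, higher, and SPTBN4 220185_at and SPTAN1 208611_s_at, lower in magnocellular layers. The classes overlapped in all 18, while 0.946% of all probe sets were lower and 0.558% higher in magnocellular layers without overlap. MAPT 203930_s_at, 1 of the 18, passed the filter only through the parvocellular samples (mean log2 9.11, magnocellular 8.75). Its class value is a description.

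ANK2 202920_at read 51852 and 36261 in deprived and 36859 and 52974 in nondeprived magnocellular layers 1 and 2. In parvocellular layers it ranged from 24314 to 40106. Means were 44487 ± 9167 in magnocellular (SD, n = 4) and 30872 ± 6347 in parvocellular layers (n = 8). Both magnocellular samples of the contralateral hemisphere, deprived layer 1 and nondeprived layer 2, lay above all 8 parvocellular samples, and the other 2 lay inside their range. The log2 difference was 0.53 ± 0.15 (95% interval 0.21 to 0.85, limma adjusted p = 0.137), and it was 0.37 within the ipsilateral and 0.69 within the contralateral hemisphere. The dimmer 202921_s_at had the same sign, 0.44 ± 0.22 (limma adjusted p = 0.382), with 2763 ± 951 in magnocellular and 1975 ± 448 in parvocellular layers.

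SPTBN4 was at 791 ± 591 in magnocellular (SD, n = 4) and 1260 ± 379 in parvocellular layers (n = 8), a difference of -0.96 ± 0.38 (limma adjusted p = 0.269) that the 2 deprived magnocellular samples carried. SPTAN1 208611_s_at was at 6271 ± 2461 in magnocellular and 8237 ± 1499 in parvocellular layers (-0.46 ± 0.21, limma adjusted p = 0.322), likewise through its deprived magnocellular samples. This SPTAN1 difference was -0.08 with the ACTB ratio as a covariate, -0.77 within the ipsilateral and -0.16 within the contralateral hemisphere, -0.21 without deprived layer 2 and -0.69 without nondeprived layer 2. That of SPTBN4 was -0.58 without deprived layer 1 and -0.62 without deprived layer 2. The nondeprived magnocellular values of both, given above, lay inside the parvocellular range.

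Between the classes a measure of RNA quality differed only before adjustment, and some glial markers passed the threshold. For the ACTB control the 3'/5' ratio was 46.4 ± 15.1 in magnocellular and 25.7 ± 8.78 in parvocellular layers (SD, n = 4 and 8, exact permutation p = 0.0162, adjusted p = 0.0878 over 9 comparisons). With that ratio as a covariate the class difference was 0.34 for ANK2 and -0.31 for SPTBN4. Oligodendrocyte markers had a median difference of -0.53 (8 of 10 negative), with MAG and MBP past the threshold (-1.26 ± 0.23 and -0.64 ± 0.13, limma adjusted p = 0.018 and 0.0334), and their summed intensity was 65495 to 89703 in magnocellular and 89777 to 156554 in parvocellular layers, without overlap. Astrocyte markers did not move together (5 of 9 positive, median 0.05; summed 83018 to 130462 in magnocellular and 59957 to 131423 in parvocellular layers). Among them AGT passed, lower in magnocellular layers (-1.07 ± 0.18, limma adjusted p = 0.00895), while SLC1A3 (0.97 ± 0.26) and ALDH1L1 (0.80 ± 0.31) had positive differences and did not pass. Microglial markers had a median of -0.18 (4 of 5 negative; 7709 to 9574 in magnocellular and 7037 to 15111 in parvocellular layers). Apart from the fits with the ACTB ratio as a covariate, the part of these measures in the values of the 9 genes was not tested.

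The remaining genes differed little by class. MAP1A 203151_at had -0.11 ± 0.15 (95% interval -0.43 to 0.21), MAP1B 212233_at 0.06 ± 0.12, MAP2 0.12 ± 0.26, MAPT 203929_s_at -0.29 ± 0.19, ANK3 206385_s_at 0.21 ± 0.15, SPTAN1 215235_at -0.13 ± 0.25 and SPTBN1 212071_s_at 0.08 ± 0.18, with limma adjusted p between 0.504 and 0.878. ANK3 206385_s_at averaged 47926 ± 6482 in magnocellular and 42147 ± 9317 in parvocellular layers. Below the filter, SPTBN1 200671_s_at had -1.15 ± 0.38 in a fit without a filter (167 ± 83.1 in magnocellular and 412 ± 208 in parvocellular layers, limma adjusted p = 0.35). Of the 9 pairs of probe sets none passed for cell class (0 of 2558 in all), 0 had an unadjusted p under 0.05 (9.15% of all pairs) and 3 differed in sign (38.2%). The pair of MAPT 203930_s_at is counted here only as a description.

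The hemispheres, ipsilateral and contralateral to the deprived eye, were set against each other in the same fit. None of the 18 probe sets passed (0.108% of all did; limma), and 3 had an unadjusted p under 0.05, all lower ipsilaterally (20.1% of all probe sets in either direction, 7.13% lower). All 3 were ankyrins. ANK3 209442_x_at read 14790, 19302, 16702, 20002, 14605 and 16802 in ipsilateral layers 1 to 6, and 27846, 28356, 21409, 22685, 22778 and 25675 in contralateral layers 1 to 6. The groups did not overlap (lower in 0.423% of all probe sets), with 17034 ± 2238 in the ipsilateral and 24792 ± 2924 in the contralateral samples (SD, n = 6 each). The log2 difference was -0.54 ± 0.13 (95% interval -0.82 to -0.27, limma adjusted p = 0.0935).

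Of the other genes, MAP1A 203151_at had a hemisphere difference of 0.09 ± 0.14, MAP1B 212233_at 0.08 ± 0.12, MAP2 0.28 ± 0.25, MAPT 203929_s_at -0.19 ± 0.18, SPTAN1 215235_at -0.07 ± 0.24, SPTBN1 212071_s_at -0.12 ± 0.17 and SPTBN4 0.18 ± 0.36. The brighter ANK3 probe set 206385_s_at had 39426 ± 7792 in ipsilateral and 48721 ± 7212 in contralateral samples, with overlap (-0.32 ± 0.14, limma adjusted p = 0.228), and ANK2 202920_at had 31494 ± 7033 in ipsilateral and 39326 ± 10928 in contralateral samples (-0.30 ± 0.14, limma adjusted p = 0.243). The GAPDH 3'/5' ratio was 6.14 ± 3.37 in ipsilateral and 3.2 ± 0.722 in contralateral samples (SD, n = 6 each, exact permutation p = 0.0519, adjusted p = 0.156 over 9 comparisons). Microglial markers had a median hemisphere difference of 0.35 (5 of 5 positive; summed 7433 to 15111 in ipsilateral and 7037 to 9135 in contralateral samples), and oligodendrocyte markers 0.20 (9 of 10 positive; 65495 to 156554 in ipsilateral and 65971 to 116654 in contralateral samples). Their part in the ankyrin values was not tested. Centring each array on its median moved the median hemisphere difference of all probe sets by -0.32, since ipsilateral arrays had the higher medians. ANK3 209442_x_at then had -0.86 (limma adjusted p = 0.0473), and it also passed without nondeprived layer 6 (-0.56, adjusted p = 0.0302). Its two-sided p in the fit as planned did not pass, and its x suffix again marks probes that may bind other transcripts.

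Over their brightest probe sets, 8 of the 9 genes had a negative deprivation difference, SPTBN1 being the exception, against 46.9% of the 7285 genes tested. This count was 6 after quantile normalization, where 52.4% of all genes were negative, and 9 after median centring, where 67.1% were, and no single gene passed. The 9 genes did not vary together over the 12 arrays. Pearson r between their log2 values ran from -0.61 (ANK2 with SPTBN4) to 0.55 (SPTAN1 with SPTBN4), as a description over arrays that share layers, scaling and perhaps animals.

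The genes whose log2 values most resembled each member over the 12 arrays are named as a description only. For MAP1A they were NRDC and RNF187 (Pearson r 0.89 each), for MAP1B VPS4A and MFGE8 (0.90 each), for MAP2 OSER1 and MARCHF6 (0.90 each) and for MAPT CXXC4 (0.90) and BIN1 (0.87). ANK2 was nearest to EPRS1 (0.97) and SUCLA2 (0.94), and ANK3 to ITSN1 and RBX1 (0.91 each). SPTAN1 was nearest to EPHX1 (0.93) and RNF10 (0.91), SPTBN1 to KPNB1 (0.92) and TAX1BP1 (0.90), and SPTBN4 to ABHD17A (0.92) and UBA1 (0.91). These are the highest of 11105 values each, over 12 arrays that share their scaling, and they were not tested.

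Lists of related genes, 1 probe set per gene, were described beside the 9 genes, and 0 of their genes passed in the deprivation or class comparison. Tubulins, the subunits of microtubules, had a median deprivation difference of -0.19 (11 of 14 measured negative), against 0.02 over the 7285 genes, and 6 of the 14 had an unadjusted p under 0.05, all lower (42.9% of them, against 12.4% of all genes in either direction). Of these 6, TUBB4B, TUBA1B, TUBB3 and TUBB were read by probe sets with the x suffix. Such probes may bind other transcripts, so the 6 may not be separate measurements. TUBG1, the gamma-tubulin of microtubule nucleation, had -0.68 ± 0.17 (1452 ± 202 in deprived and 2342 ± 452 in nondeprived layers, limma adjusted p = 0.145), and the beta-tubulin TUBB4B had -0.52 ± 0.14 (47860 ± 10960 in deprived and 67860 ± 8093 in nondeprived layers, adjusted p = 0.164). The tubulin median was -0.06 in parvocellular layers alone. It was -0.33 in the ipsilateral hemisphere alone, where deprivation and layer cannot be told apart, and 0 of the 14 passed.

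Other microtubule-associated proteins did not lean either way (median 0.01, 9 of 20 negative). MAP1LC3B, an autophagosome protein first found as a light chain of these proteins, had -0.38 ± 0.14, and CLASP2, which binds growing microtubule ends, 0.37 ± 0.17. Kinases and a phosphatase of tau and its relatives had a median of -0.14 (12 of 16 negative), with the tau kinase CDK5 at -0.54 ± 0.19 and the neuronal stress kinase MAPK10 at -0.33 ± 0.15. Other genes of the spectrin and ankyrin skeleton had -0.15 (10 of 14 negative), with MPP1, a membrane skeleton scaffold, at -0.68 ± 0.20 and ADD2, the actin-capping beta-adducin, at -0.47 ± 0.14. Membrane proteins of the initial segment and node had -0.11 (7 of 12 negative), with the adhesion molecule CNTN1 at 1.05 ± 0.34 and the sodium channel SCN8A at -0.57 ± 0.27. The limma adjusted p of these 8 genes lay between 0.195 and 0.416.

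**Figure D5:**
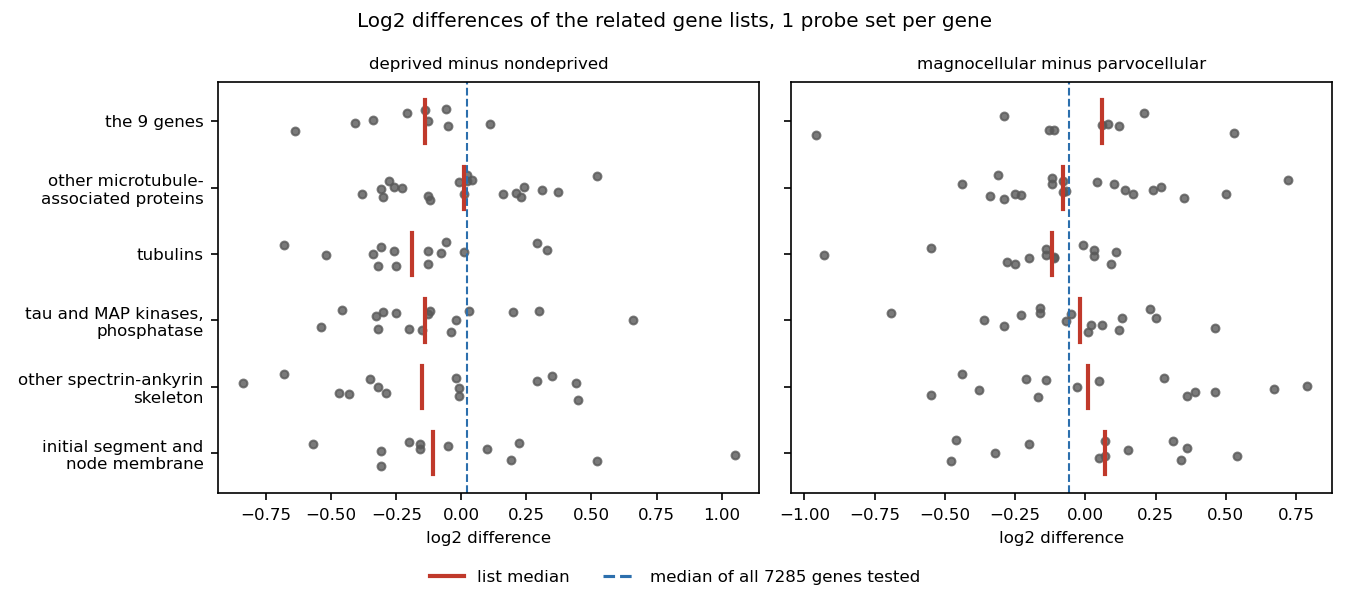
Log2 differences (horizontal axes) of the 9 genes and of 5 related lists, 1 point per gene, for deprived minus nondeprived layers at left and magnocellular minus parvocellular layers at right. Vertical placement within a list is arbitrary, solid bars are list medians and the dashed line is the median of the 7285 genes tested. Tubulins lie furthest below the dashed line with deprivation, with a median of -0.19.

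By cell class the lists had medians from -0.12 (tubulins, 10 of 14 negative) to 0.07 (initial segment and node, 8 of 12 positive), against -0.06 over all genes. GABARAPL1 and MAP7D1 among the microtubule-associated proteins had 0.72 ± 0.24 and 0.50 ± 0.18, and the tubulins TUBB6 and TUBA1B -0.93 ± 0.37 and -0.25 ± 0.12. PPP2R2B, a regulatory subunit of a tau phosphatase, had 0.46 ± 0.16, and the tau kinase GSK3B -0.69 ± 0.32. CAPN2, a calpain protease that cleaves spectrin, had 0.79 ± 0.23, and EPB41L1, an adaptor of the spectrin and actin skeleton, 0.67 ± 0.26. CNTNAP2, an adhesion protein beside the nodes, had 0.54 ± 0.18 and LGI1, a secreted neuronal protein, 0.36 ± 0.14. The limma adjusted p of these 10 genes lay between 0.138 and 0.333.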

How the data were processed

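The authors deposited 1 linear intensity per probe set for 12 human Affymetrix arrays hybridised with macaque RNA. How these intensities were computed was not given in the sources used here, and their 2%-trimmed means (1500.45 to 1500.6) show prior scaling between arrays. Human probes can bind macaque transcripts less well where sequences differ. Values were raised to the pooled 20th percentile (110.8), log2 of the deposited intensities was taken, and the 11105 non-control probe sets with a mean log2 at or above the median (8.92) were tested. limma 3.58.1 in R 4.3.3 (lmFit, eBayes with a trend) was fitted over all 12 arrays with deprivation, cell class and hemisphere, two-sided, with Benjamini-Hochberg adjustment over all probe sets, and the interaction was added in a second fit. The 8 and 7 residual degrees of freedom and the number of arrays limit precision. Differences between probe sets of 1 gene were fitted likewise over 2558 pairs without a trend. The fits were tested on simulated data. Array measures were compared by two-sided exact permutation tests. Genes were named through the array's annotation, which gave 19065 probe sets 1 gene, 1043 several and 2107 none, and only those with 1 gene were used by name.

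All probe sets of the 9 genes are accounted for. Those past a threshold or without overlap and the brightest of each gene are given in full, and of each related list the 2 genes of smallest p. The 9 genes, the lists and the tests were chosen with earlier results of these data known. Alternatives changed the block, terms, normalization, filter, trend, floor, RNA quality covariates and samples in the fit. Same-numbered samples are the same layer of opposite hemispheres. Their deviations correlated at -0.25 to -0.00, and the layer number entered the fit only as an alternative block. No 2 arrays held identical values. The files name no genome build, so no coordinates are given.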

Additional observations from a re-analysis of the deposited data

Results flagged for a closer look

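In 3 of the 72 groups of values examined for the 9 genes, 1 sample lay further from the rest than Dixon's criterion allows, where about 1 group in 20 is expected to by chance (3.6 of 72). MAPT 203929_s_at was 2965 in deprived layer 5, the lowest of the 8 parvocellular samples, with the next at 4708. MAPT 203928_x_at was 320 in deprived layer 2, the lowest of the 6 deprived samples, with the next at 802. SPTAN1 215235_at was 6448 in deprived layer 2, the lowest of the 6 deprived samples, with the next at 13553. These are the 2 arrays with the highest GAPDH 3'/5' ratios (11 for deprived layer 5 and 9.38 for deprived layer 2), and the part of RNA quality in these values was not tested.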

How the results depend on the processing

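For deprivation, 0 of the 18 probe sets passed in any of the alternatives run, and MAP1A 203151_at ran from -0.77 to -0.51 (limma adjusted p 0.0566 to 0.765). For cell class the count was 0 to 1 when single samples were left out, with 1 (ANK2 202920_at, 0.62, adjusted p = 0.0248) without nondeprived layer 6. For hemisphere it was 1 under median centring (ANK3 209442_x_at) and 0 to 2 when single samples were left out, with 2 (ANK3 209442_x_at and ANK2 202920_at, -0.42, adjusted p = 0.0477) without nondeprived layer 6. For the interaction it was 0 to 3, with 3 (SPTBN4, SPTAN1 215235_at and MAPT 203928_x_at) without deprived layer 1, a fit in which deprived layer 2 alone carries the deprived magnocellular group and is assumed to vary like the others. No pair of probe sets passed in any alternative. Of 2043 recomputed values of the 9 genes and their probe set pairs, 2036 kept their side of the threshold and 7 passed it. In 188 the sign changed, all of values whose unadjusted p had been 0.05 or more.

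With the layer number as a replicate block, 0 of the 18 probe sets passed for deprivation, hemisphere or interaction (MAP1A 203151_at -0.64, adjusted p = 0.15; SPTBN4 interaction -2.52, adjusted p = 0.175), and 3 of all probe sets passed for deprivation, against 7 without the block. In 0 of 6 layers did a sample correlate best with its own number, and 0 of 6 correlations were over 0.1. Median centring moved the median of all probe sets by -0.14 for deprivation. Pairs were fitted without a trend, so that alternative was not run for them. The number of arrays, 2 in the smallest group, limits every value, and no detection calls were used here.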
